A study of Mus musculus with 30 samples.

Results

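Strong CTCF sites without a called RAD21 peak in wild-type (WT) embryos were 2460 of the 24627 strong autosomal CTCF sites. CTCF sites were 47683 in all. The 2460 sites were chosen on WT values alone. A CTCF site was a group of WT summits linked within 150 bp whose median summit was covered in all 3 CTCF WT peak lists. It was strong where the mean fold enrichment over the 3 lists was at least 8. It was without RAD21 where none of the 4 RAD21 WT lists had a peak within 150 bp of that summit. Here and below, this means that no peak was called, not that cohesin was absent. The other 22167 strong sites had a RAD21 peak there in at least 1 WT list. The WT CTCF values and the absence of WT RAD21 are therefore a description of the choice, and tests were made only in the mutant libraries, which the choice did not use.

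CTCF and RAD21 were mapped by ChIPmentation, a chromatin immunoprecipitation in which Tn5 transposase adds the sequencing adapters on the beads, in the trunk of E10.5 mouse embryos of the B6CBAF1 strain. The mutant embryos were homozygous for 1 of 6 alleles of the HoxD cluster, each named for the CTCF binding sites (CBS) it alters. The WT embryos were their littermates. CTCF had 11 mutant libraries, and 3 of them were Del(CBS1), 2 each were Del(CBS1-5), Del(CBS1-4) or Del(CBS1-3), and 1 each was Del(CBS1-2) or Del(CBS2). It also had 3 WT libraries. RAD21 had 12 mutant and 4 WT libraries, with 2 of Del(CBS1-2) and otherwise the same numbers of each allele. A trunk holds many cell types, so a peak can come from some of its cells only, and the label of the tissue cannot be checked in these files. Each library had its own peak list without read counts. Depth was therefore unknown, and the list lengths, 40011 to 88323 peaks for CTCF and 16676 to 48102 for RAD21, describe only how much was called.

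CTCF is a zinc-finger protein that binds DNA through a long motif and marks many chromatin loop anchors and domain borders. Cohesin, the ring complex of which RAD21 is the kleisin subunit, extrudes chromatin loops and is held at CTCF-bound sites. Most CTCF sites of mammalian cells therefore also carry cohesin, and CTCF sites at gene promoters, at the HoxD cluster and at antigen receptor loci are well-known examples of CTCF-dependent chromatin contacts.

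At a WT fold of 15 or more, 16 of 33 such sites lay at promoters, and promoter DNA is the only sequence used here, so the 6 strongest sites that lie in a promoter with 50 bases on each side are shown first. The 4 strongest other promoter sites, Nsfl1c, Nipsnap2, Rbm17 and Nae1, each with RAD21 in all 4 WT lists, follow them for comparison. The stretches are from RefSeq promoters of GRCm38.p6, which is mm10, with the summit in the middle. Capitals mark the 12 bases within 50 bp of the summit that come closest to CCANNAGNNGGC, a short form of the CTCF motif in which N is any base and 8 letters are fixed. Each stretch is printed on the strand on which that match reads forward.
Polr2j: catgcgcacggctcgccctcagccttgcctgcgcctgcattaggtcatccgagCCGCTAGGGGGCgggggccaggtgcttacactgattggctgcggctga
Ndufb10: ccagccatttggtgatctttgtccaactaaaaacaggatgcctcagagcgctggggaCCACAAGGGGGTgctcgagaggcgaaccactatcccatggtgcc
Got2: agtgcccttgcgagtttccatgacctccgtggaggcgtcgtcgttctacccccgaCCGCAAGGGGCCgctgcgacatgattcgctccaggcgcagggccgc
Ythdf2: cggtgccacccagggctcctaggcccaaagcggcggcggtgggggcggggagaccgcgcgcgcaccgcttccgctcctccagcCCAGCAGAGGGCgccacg
Specc1: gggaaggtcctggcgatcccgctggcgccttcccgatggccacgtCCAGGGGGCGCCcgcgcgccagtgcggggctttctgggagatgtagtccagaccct
Nomo1: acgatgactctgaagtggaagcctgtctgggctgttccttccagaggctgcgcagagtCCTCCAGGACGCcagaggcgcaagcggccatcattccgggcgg
Nsfl1c: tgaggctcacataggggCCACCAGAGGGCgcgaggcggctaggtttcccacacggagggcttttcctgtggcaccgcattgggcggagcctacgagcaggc
Nipsnap2: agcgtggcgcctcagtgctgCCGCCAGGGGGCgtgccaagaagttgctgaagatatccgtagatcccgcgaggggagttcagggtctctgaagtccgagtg
Rbm17: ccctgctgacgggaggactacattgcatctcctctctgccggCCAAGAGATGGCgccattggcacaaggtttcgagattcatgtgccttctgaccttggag
Nae1: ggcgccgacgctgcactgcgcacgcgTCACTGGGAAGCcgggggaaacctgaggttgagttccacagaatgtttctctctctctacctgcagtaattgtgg

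Polr2j, which encodes a subunit of RNA polymerase II, is printed from the plus strand of chr5:136116566-136116666, and its capitals miss 1 of the 8 fixed letters. Ndufb10, a subunit of mitochondrial complex I, is printed from the minus strand of chr17:24724466-24724566 and also misses 1 letter. Got2, the mitochondrial aspartate aminotransferase, is printed from the minus strand of chr8:95888424-95888524 and misses 2. Ythdf2, a reader of N6-methyladenosine in mRNA, is printed from the minus strand of chr4:132212304-132212404 and is the only one of the 6 with all 8 letters, centred 38 bp from the summit. Specc1, from the minus strand of chr11:61956708-61956808, and Nomo1, from the plus strand of chr7:46033547-46033647, a protein of the endoplasmic reticulum, each miss 2. Among the 4 sites with RAD21, Nsfl1c at chr2:151494105-151494205 and Rbm17 at chr2:11603315-11603415 hold all 8 letters on the plus strand. Nipsnap2 at chr5:129724894-129724994 misses 1 on the minus strand, and Nae1 at chr8:104534670-104534770 misses 3 on the plus strand. Both sets thus hold exact and poor matches, and no match says only that these letters are not in the window.

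Over all promoter windows (250 bases before to 50 after a gene start), 68 sites without WT RAD21 and 857 other strong sites had their summit inside a window, and 51 and 727 of them had 50 bases on each side. The exact motif CCANNAGNNGGC, read on both strands, was present within 50 bp of the summit at 5 of the 51 sites without WT RAD21 (9.80%, 95% Wilson interval 4.26 to 21%) and at 112 of the 727 other sites (15.4%, 13 to 18.2%). These intervals overlap. With at most 1 of the 8 letters missing, the shares were 14 of 51 (27.5%, 17.1 to 41%) at sites without WT RAD21 and 410 of 727 (56.4%, 52.8 to 60%) at other sites, and these intervals do not overlap. The looser pattern CCNNNAGNNGGC, which contains every exact match, was found at 9 of 51 (17.6%, 9.57 to 30.3%) sites without WT RAD21 and at 267 of 727 (36.7%, 33.3 to 40.3%) other sites. The core AGNNGGC, which both longer patterns end in, was found at 31 of 51 (60.8%, 47.1 to 73%) and 486 of 727 (66.9%, 63.4 to 70.2%). In a middle stretch of the same length in all 32851 promoter windows, CCANNAGNNGGC was present in 0.977%, CCNNNAGNNGGC in 3.27% and AGNNGGC in 27.6%. The intervals cover counting error only, and their overlap is not a test between the sets. The sets were not matched for CTCF strength: over all strong sites the median WT fold was 9.30 without WT RAD21 and 12.1 at the others. At a WT fold of at least 12, the exact motif stood at 1 of 17 sites without WT RAD21 and 88 of 462 others. The core stood at 8 of 17 and 316 of 462. The share with at most 1 letter missing was not computed at that limit. The median GC content of the windows was 62.0% at sites without WT RAD21 and 60.3% at other strong sites, against 52.7% over all windows, and the median number of CpG dinucleotides was 23, 20 and 7.

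Among WT CTCF sites, the share without RAD21 was smaller in each stronger bin from 2-fold to 20-fold. It was 76.2% at a mean fold of 2 to 4, 65.0% at 4 to 6 and 42.8% at 6 to 8. Within the strong sites it was 23.9% (1646 of 6900) at 8 to 10, 5.59% (780 of 13952) at 10 to 15 and 0.894% (33 of 3692) at 15 to 20, and 1 of 83 sites above 20 lacked RAD21. The sites without RAD21 are thus mostly near the lower limit that chose them. Their median WT fold was 9.30, against 12.1 for the other strong sites, and the median of the lowest -log10 q over the 3 WT lists was 23.7, against 66.1. The sites just inside the fold limit, at Stx8 and near Gm25496 and Atp6v0e2, had 8.00 to 3 digits, and the 3 nearest outside it, near Gm19095, Srgap3 and Hfm1, had 7.996 at the lowest. The 3 sites nearest to the RAD21 limit without RAD21 lay at most 155 bp from a WT RAD21 peak, and 3 sites with RAD21 at exactly 150 bp lay just beyond it. Few sites were so close: 76 of 2460 (3.09%) had a WT RAD21 peak within 500 bp, and the median distance was 14540 bp.

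**Figure D1:**
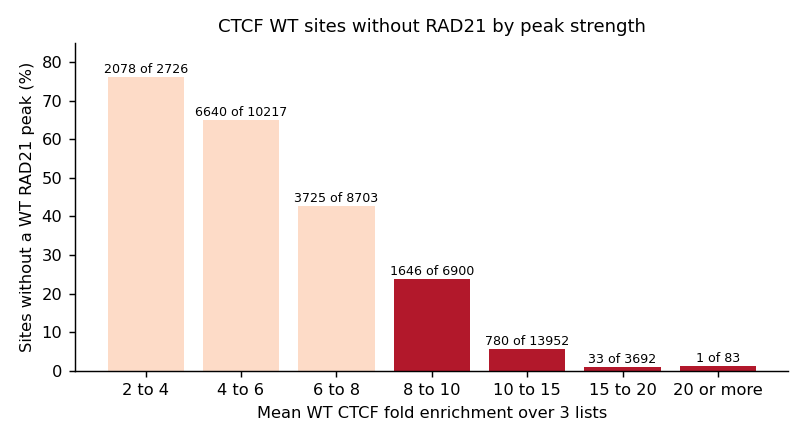
Share of autosomal WT CTCF sites without a WT RAD21 peak within 150 bp (y axis, percent) by the mean fold enrichment of CTCF over the 3 WT lists (x axis); dark bars are the strong sites described here, pale bars are weaker sites, and the counts stand above the bars. The share was 23.9% at 8 to 10 and 0.894% at 15 to 20; 9 sites under 2 are not drawn.

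RAD21 peaks were also called less often at these sites in mutant embryos. RAD21 was found within 150 bp of 9.88% ± 6.72 of the sites without WT RAD21 per mutant library, against 86.3% ± 11.5 of the other strong sites (SD, n = 12 libraries). The share was lower at the sites without WT RAD21 in 12 of 12 libraries, by 76.5 percentage points ± 7.02 (SD), with an adjusted p of 0.000977 in an exact 2-sided sign-flip permutation test over libraries, adjusted by Benjamini-Hochberg over 5 measures. In this test the smallest p the 12 libraries allow is 0.000488. At the level of sites, 1278 of 2460 (52.0%) had RAD21 in no mutant library, 910 in 1 to 3 libraries, 230 in 4 to 6 and 42 in 7 to 12. None had it in 11 or 12. Of the other strong sites 107 (0.483%) had RAD21 in no mutant library and 11906 (53.7%) in all 12. The alleles alter CTCF sites of the HoxD cluster, and all but 1 of the 2460 sites lie outside it.

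**Figure D2:**
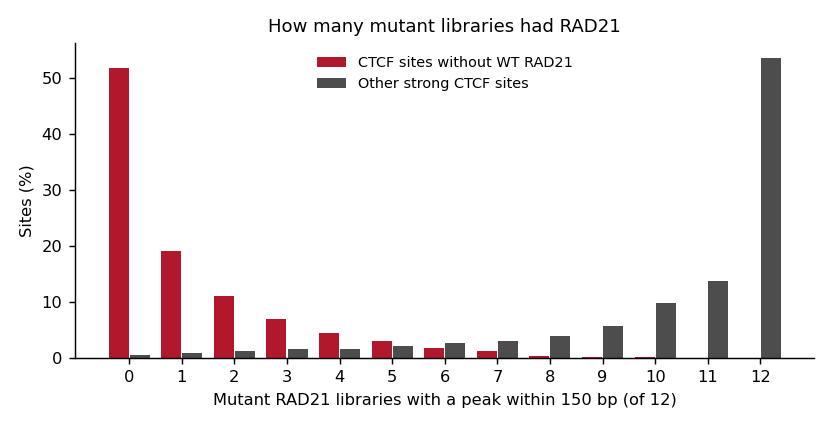
Share of sites (y axis, percent) by the number of the 12 mutant RAD21 libraries with a peak within 150 bp (x axis), for CTCF sites without WT RAD21 (red, n = 2460) and other strong CTCF sites (grey, n = 22167). The red bars are highest at 0 libraries (52.0%) and the grey bars at 12 (53.7%).

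The number of WT lists with RAD21 ordered the sites in the mutants as well. Sites with RAD21 in 0, 1, 2, 3 and 4 WT lists had it in 9.88%, 33.1%, 51.9%, 73.2% and 95.7% of sites per mutant library on average (SDs 6.72, 19.7, 27.0, 27.8 and 7.27, n = 12). The mean share was thus lowest at the sites without WT RAD21 and higher with each further WT list. The share of sites with RAD21 in no mutant library was 52.0% at 0 WT lists, 7.02% at 1, 0.641% at 2, 0.0371% at 3 and 0.00599% at 4. Where RAD21 was called at them, the peaks were weak. Their median fold ran from 3.29 to 4.55 over the 12 libraries and their median rank stood between percentiles 10.51 and 30.8 of the library's own list. At the other strong sites the median fold ran from 6.68 to 9.29 and the median percentile from 56.5 to 76.5. Above the median of its own list lay at most 13% of the RAD21 peaks at sites without WT RAD21, in the Del(CBS2) library, and none in Del(CBS1) replicate 1 and Del(CBS1-5) replicate 2.

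How many of these sites had RAD21 moved with how many peaks a library had. The share was 0.732% in Del(CBS1-5) replicate 2, the shortest RAD21 list with 16676 peaks, and 20.0% in Del(CBS2), the longest with 48102. Across the 12 mutant libraries Pearson's r was 0.952 (adjusted permutation p = 4e-05, 100000 permutations, Benjamini-Hochberg over 4 relations) and Spearman's rho 0.923 (adjusted permutation p = 0.00028). Without the 2 libraries farthest from the median list length r was 0.943. Every list, WT lists included, was then cut to the same number of top peaks for its antibody, 40011 for CTCF and 16676 for RAD21. With these cut lists 7833 sites met the rule. Against the length of the deposited, uncut lists r was then -0.44, so the relation was no longer seen for these sites. Their RAD21 share in mutant libraries was 4.43% ± 1.46 (SD, n = 12), from 2.29 to 6.60%. The number of mutated CTCF sites in the allele showed no such relation with the share in the deposited lists (r = -0.32, adjusted permutation p = 0.307, rho = -0.28). List length differs between libraries of the same allele, 18029 to 38462 peaks among the 3 Del(CBS1) libraries, whose shares were 0.854%, 14.3% and 9.88%.

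**Figure D3:**
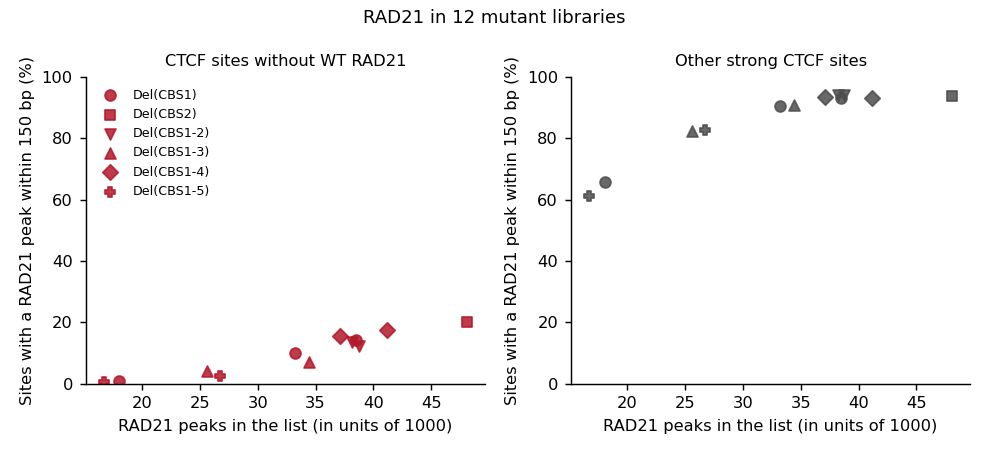
Share of sites with a RAD21 peak within 150 bp (y axis, percent) against the number of peaks in the RAD21 list (x axis, in units of 1000), 1 point per mutant library, with symbols for the allele; the left panel holds CTCF sites without WT RAD21 and the right panel other strong CTCF sites. The points run from 0.732% to 20.0% on the left and from 61.2% to 94.3% on the right.

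The CTCF peaks themselves were mostly kept in the mutants but were weaker than at other strong sites. CTCF covered 97.0% ± 3.79 of the sites without WT RAD21 and 99.5% ± 0.649 of the other strong sites per mutant library (SD, n = 11), a difference of -2.44 percentage points ± 3.17 with the same sign in 11 of 11 libraries. In all 11 libraries CTCF was found at 1988 of 2460 sites (80.8%) without WT RAD21 and at 96.4% of the other strong sites. Sites were ranked by their fold in a mutant library among the 46282 autosomal WT CTCF sites. The median percentile was 54.3 ± 2.53 at the sites without WT RAD21 and 75.4 ± 0.181 at other strong sites. The peaks at the sites without WT RAD21 were also narrower, with a median width of 603 bp ± 87.6 against 735 bp ± 70.1. They had a lower median -log10 q, 30.6 ± 19.3 against 80.5 ± 50.4 (SD, n = 11). All 4 differences had an adjusted p of 0.000977 in the exact sign-flip permutation test, the smallest that 11 libraries can give, and were lower in 11 of 11 libraries.

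Part of this difference in strength was built in by the choice, since the sites without WT RAD21 were weaker in WT too. Within a WT fold of 8 to 10 the median percentile in mutant libraries was 49.3 ± 2.58 at 1646 sites without WT RAD21 and 54.8 ± 0.837 at 5254 other sites, lower in 10 of 11 libraries. Within 10 to 15 it was 65.3 ± 2.84 at 780 sites and 76.8 ± 0.315 at 13172 other sites, lower in 11 of 11. At 15 or more it was 94.8 ± 2.67 at 34 sites and 95 ± 0.377 at 3741 other sites, lower in 5 of 11, a difference of -0.26 ± 2.37 (SD). In the same bin the RAD21 share in mutant libraries was 20.1% ± 16.0 at the 34 sites and 96.3% ± 4.22 at the other sites (SD, n = 12), lower in 12 of 12. The CTCF peaks of the 34 sites were narrower, 685 bp ± 63.6 against 765 bp ± 61.2 at the other sites, in 10 of 11 libraries. Their median -log10 q was 130 ± 92 against 146 ± 93.5, lower in 11 of 11. In this bin the percentiles thus differed by less than the spread between libraries, while width and -log10 q were still lower at the sites without WT RAD21.

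**Figure D4:**
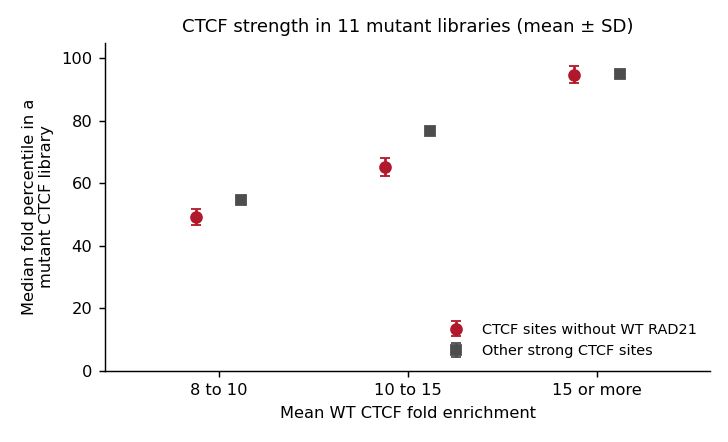
Median percentile of CTCF fold in a mutant library among all autosomal WT CTCF sites (y axis), mean ± SD over 11 mutant libraries, by mean WT CTCF fold (x axis), for CTCF sites without WT RAD21 (red circles) and other strong CTCF sites (grey squares). The sets stand at 49.3 and 54.8 in the lowest bin and at 94.8 and 95 in the highest.

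The few very strong sites without WT RAD21 were often at promoters. Chromosome 18 has no gene starts in the table used, which leaves 2387 sites without WT RAD21 and 21429 others. Within 1 kb of a gene start lay 7.12% of the sites without WT RAD21 and 9.05% of the other strong sites; 58.1% and 50.7% lay elsewhere in a gene span, and 34.8% and 40.3% lay outside genes. Among the sites without WT RAD21 the promoter share was higher in each stronger bin. It was 5.56% (89 of 1600) against 8.97% of other sites at a WT fold of 8 to 10, 8.62% (65 of 754) against 8.04% at 10 to 15, and 48.5% (16 of 33) against 12.7% (458 of 3603) at 15 or more. Of these 33, 14 lay within 250 bp of a start.

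**Figure D5:**
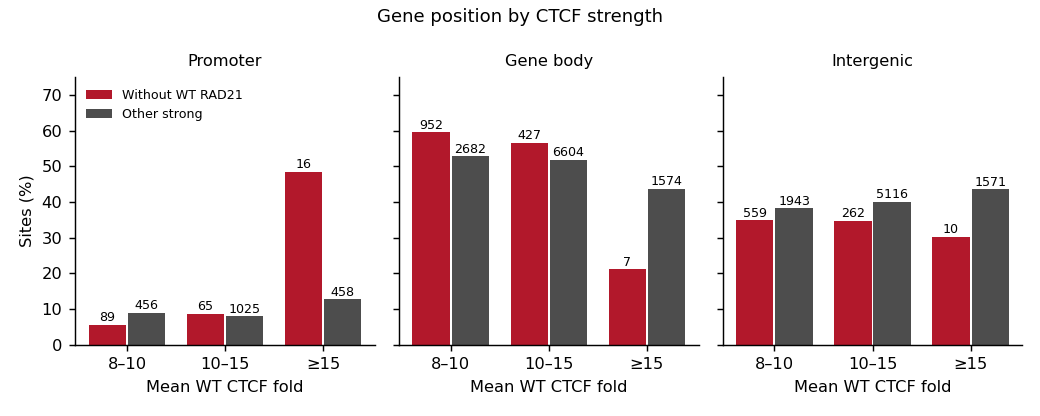
Share of sites (y axis, percent) within 1 kb of a gene start (left), elsewhere in a gene span (middle) or outside genes (right), by mean WT CTCF fold (x axis), for CTCF sites without WT RAD21 (red) and other strong CTCF sites (grey), with counts above the bars. At a fold of 15 or more, 16 of 33 red sites and 458 of 3603 grey sites lie at promoters.

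The same pattern was tested in the mutant CTCF libraries, in a comparison chosen after the WT pattern had been seen. In each library the 119 sites without WT RAD21 that had the highest CTCF fold there, the top 5%, were at promoters in 27.6% ± 3.74 of cases, against 6.05% ± 0.196 of the remaining 2268 (SD, n = 11), higher in 11 of 11 libraries (adjusted p = 0.00195, exact sign-flip permutation test over libraries, Benjamini-Hochberg over 4 added tests). Among the other strong sites the top 5% were at promoters in 17.3% ± 3.3 of cases and the rest in 8.62% ± 0.173. The difference between the top 5% and the rest was larger at the sites without WT RAD21 by 12.9 percentage points ± 3.37 (SD), in 11 of 11 libraries (adjusted p = 0.00195, exact sign-flip permutation test). All libraries see the same sites, so this tests agreement between libraries, not between sets of sites. The top 5% was taken within each set, so the sets were compared at unlike CTCF strengths. The 95th percentile of WT fold was 12.9 at the sites without WT RAD21 and 17.0 at the other strong sites. The promoter sites also had RAD21 in mutant libraries more often than the other sites without WT RAD21, 15.3% ± 12.6 against 9.34% ± 6.28 (SD, n = 12), higher in 9 of 12 libraries (adjusted p = 0.0143, exact sign-flip permutation test). The widest gap, 42.35% against 17.95%, was in the Del(CBS2) library, which has the longest RAD21 list and was not left out in turn. This comparison was not matched for CTCF strength. Over all sites without WT RAD21, the mean RAD21 share in mutant libraries was 8.38% at a WT fold of 8 to 10. It was 12.6% at 10 to 15 and 20.1% at 15 or more. Between sites in gene bodies and sites outside genes the difference was -0.16 percentage points ± 1.43 (9.28% and 9.45%; adjusted p = 0.727, exact sign-flip permutation test).

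Polr2j had the strongest promoter site, 75 bp from the gene start at chr5:136116616. Its CTCF fold ran from 9.71 to 23.8 with a median of 17.5 in the 11 mutant libraries, against 22.0, 17.1 and 19.8 in the 3 WT libraries. RAD21 peaks of 2.70-, 3.64- and 4.19-fold were present in 3 of 12 mutant libraries. Ndufb10, at chr17:24724516 and 93 bp from the start, had CTCF folds of 10.2 to 20.6 (median 16.4) in mutant libraries and 21.4, 16.4 and 19.1 in WT libraries. Its only RAD21 peak in the 12 mutant libraries was 4.21-fold, in the Del(CBS2) library. The CTCF ranges of mutant and WT libraries overlapped at both promoters.

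Got2 at chr8:95888474 had 10.1- to 22.4-fold CTCF in mutant libraries (median 16.0) and 19, 16.4 and 17.4 in WT libraries, with RAD21 in 3 mutant libraries. Ythdf2 at chr4:132212354 had 9.21 to 22.1 (median 16.7) in mutant libraries and 20.3, 15.1 and 17.4 in WT libraries, with RAD21 in 4 mutant libraries. The site shared by the start of Odr4 and the span of Tpr, a nuclear pore protein, at chr1:150393034 had 8.98 to 21.2 (median 15.8) in mutant libraries and 16.1, 16.7 and 19.8 in WT libraries. RAD21 was found there in 3 mutant libraries, with folds between 3.96 and 6.51. At the promoters of Polr2j, Ndufb10, Got2, Ythdf2 and Odr4 CTCF was thus present in all 11 mutant libraries and RAD21 in 1 to 4 of 12.

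The other 11 promoters at a WT fold of 15 or more were those of Hnrnpdl, Specc1, Exd1, Nomo1, Rcc2, Myl6, Rab29, Pcsk7, Rhot1 and the predicted genes Gm34319 and Gm3248. They include an RNA-binding protein (Hnrnpdl), a regulator of mitosis (Rcc2), a myosin light chain (Myl6), a small GTPase (Rab29), a proprotein convertase (Pcsk7) and a mitochondrial GTPase (Rhot1). CTCF was found at each of the 11 in all 11 mutant libraries, and RAD21 in 0 to 4 of 12. The nearest WT RAD21 peak lay 395 bp away at Myl6 and between 4543 and 147818 bp away at the other 10. Exd1 also had 1 of the 5 highest lowest-list -log10 q values, 210, with CTCF folds of 13.6 to 20.4 in mutant libraries and 17.9, 15.6 and 16.5 in WT libraries. The highest was at Kdm3b on chromosome 18, a histone H3 lysine 9 demethylase gene 180 bp from the summit, with 232. Its CTCF fold was 11.6 to 18.6 in mutant libraries and 17.9, 15.9 and 17.2 in WT libraries, and RAD21 was found in 5 of 12 mutant libraries at 3.02- to 4.11-fold.

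Not all of the strongest sites were promoters. The highest mean WT fold, 23, was at chr9:78259866 in the span of the predicted gene Gm3776, 2737 bp from its start. Its CTCF fold was 8.01 to 29.4 (median 21.5) in mutant libraries and 17.7, 21.8 and 29.4 in WT libraries. No RAD21 peak was found there in any of the 12 mutant libraries. A site in the span of Hhat, the acyltransferase of Hedgehog ligands, at chr1:192745294 had 12.3 to 22.4 in mutant libraries and 21.1, 15.5 and 18.1 in WT libraries, with RAD21 in 3 mutant libraries. The remaining 3 of the 10 highest lay on chromosome 14, near Gm32427, near Gm17046 and in Gm3715. They had RAD21 in 7, 2 and 1 of the 12 mutant libraries. In the Gm32427 site the RAD21 folds ran from 4.12 to 6.61.

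RAD21 was found most often in mutants at Hbq1a, a theta-globin gene of the alpha-globin cluster, and at Spns2, a sphingosine-1-phosphate transporter, each in 10 of 12 libraries. The Hbq1a site, at chr11:32299960 and 109 bp from the gene start, had RAD21 folds of 3.64 to 5.67 in those libraries. Its CTCF fold was 8.37 to 14.9 (median 10.6) in mutant libraries and 14.5, 10.2 and 11 in WT libraries. The Spns2 site, at chr11:72490161, lay 711 bp from a WT RAD21 peak and had RAD21 folds of 2.86 to 4.63. Sites near Ppp2r2a, a regulatory subunit of protein phosphatase 2A, near Minpp1, an inositol polyphosphate phosphatase, and in Ctif, a translation factor, had RAD21 in 9 libraries each. These 5 sites were without RAD21 in all 4 WT lists by the rule, and no mutant peak at them exceeded 7.42-fold.

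At the other end, CTCF was found in 2 of the 11 mutant libraries at 1 site, in 3 at 2 sites and in 4 at 5 sites. The first is in Gm32213, the next are in Gm30228 and Sgsm1, and of the 5 sites with CTCF in 4 libraries those with the highest WT fold are near Gm40665 and Gm32235. In each of the sites named here the 3 WT folds were uneven. The Gm32213 site had 2.35, 11.3 and 12.8 in the WT libraries, and the Gm40665 site had 17.1, 2.88 and 12.8. Where CTCF was found at the named sites in mutants, the fold reached 8.74 to 15.3. The named sites thus differed between libraries in WT and mutant embryos alike.

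Some genes held several of these sites, with the Tcra span, the T-cell receptor alpha locus, holding the most. Of its 19 strong CTCF sites, 11 (57.9%) were without WT RAD21, against 9.99% of all strong sites. They lay between chr14:52580561 and chr14:53776885, with WT folds of 8.02 to 15.1 (median 10.2). In mutant libraries CTCF was found in all 11 at 8 of the 11 sites, and RAD21 in none at 7. The highest number of mutant RAD21 libraries was 6, at the site at chr14:53776885. The 4 strong sites further along the locus, from chr14:53804400 to chr14:54153038, each had RAD21 in all 4 WT lists and in 10 to 12 mutant libraries. The 11 sites therefore lie in the part of the span before these 4, among 4 other strong sites that had RAD21 in 1 to 3 WT lists. The share of sites in this locus was picked out after its value had been seen and was not tested.

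Kif6, which encodes a kinesin, held 5 sites without WT RAD21 of 7 strong sites, Wwox, an oxidoreductase gene, 5 of 13, and Fry 5 of 15. Pde11a, a phosphodiesterase gene on the chromosome of the HoxD cluster, held 4 of 9, with RAD21 in no mutant library at any of the 4. Every strong site of Abl2, a tyrosine kinase gene, of Rest, a repressor of neuronal genes, and of Rimbp2, a presynaptic scaffold gene, was without WT RAD21, 3 of 3 in each. Among 1159 genes with at least 3 strong sites, these 3 were the only ones with all sites without it. RAD21 in mutants was found at the Abl2 and Rimbp2 sites in at most 1 library and at the Rest sites in at most 4. Over chromosomes the share of strong sites without WT RAD21 ran from 7.36% on chromosome 16 to 13.8% (232 of 1683) on chromosome 5. They were spread over 1267 of the 2285 windows of 1 Mb that held a strong site, and the most in 1 window were 11 of 24, at 49 to 50 Mb of chromosome 17.

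Few of these sites lay near the listed genes, and their shares are given beside the 9.99% of all strong sites. Within 5 kb of a gene, the sites without WT RAD21 were 2 of 20 strong sites at Hox clusters (10%), 2 of 28 at imprinted genes (7.14%), 0 of 10 at clustered protocadherins, 1 of 15 at genes of cohesin and its regulators (6.67%), 1 of 15 at regulators of trunk tissues (6.67%) and 9 of 62 at olfactory and vomeronasal receptors (14.5%). The Hox share is close to that over all strong sites and the receptor share above it, and the lists were not tested. The imprinted genes were Plagl1, a zinc-finger gene (WT folds 12.7, 4.96 and 8.40), and Rasgrf1, an exchange factor gene (11.4, 6.51 and 8.25). The site in Ctcf itself, at chr8:105661352, had CTCF folds of 5.94 to 14.9 in mutant libraries and 10.8, 10.4 and 11.9 in WT libraries. RAD21 was found there in none of the 12 mutant libraries. The site in Pax7, a regulator of muscle and neural progenitors, at chr4:139789978, had 3.91 to 15 in mutant libraries and 15.6, 8.67 and 9.48 in WT libraries, and RAD21 in 3 mutant libraries. The Hoxa3 site at chr6:52211734 had 4.22 to 15.8 in mutant libraries and 13.4, 11.9 and 10.1 in WT libraries, and RAD21 in 4.

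The one such site in the HoxD window, chr2:74632989-74785142, where 6 of 12 CTCF sites were strong, lay at chr2:74694237 in the span of Hoxd10, 2346 bp from its start. CTCF was found there in the 5 libraries of Del(CBS1), with 9.51, 3.68 and 3.95, of Del(CBS1-2), with 6.49, and of Del(CBS2), with 8.39. It was not found in any of the 6 libraries of Del(CBS1-3), Del(CBS1-4) and Del(CBS1-5). By their names these are also the alleles that alter CBS3, so that and the number of altered sites cannot be told apart. Whether this site is CBS3 itself was not tested. The 3 WT libraries had 9.41, 7.29 and 8.04. RAD21 was found within 150 bp in none of the 12 mutant libraries nor, by the rule, in the 4 WT libraries. The nearest WT RAD21 peak lay 1959 bp away. Of the 2460 sites without WT RAD21 this was the only one found in all 5 libraries of alleles altering at most 2 CTCF sites and in none of the 6 of alleles altering 3 or more. None of the 22167 other strong sites had that pattern, and no site of either set had the reverse.

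Allele differences were fitted over the sites found in every mutant CTCF library, which leaves out the sites without WT RAD21 that any of these libraries lacked. With limma on rank-based scores over these 30182 sites, Del(CBS1-5) minus Del(CBS1) gave 7 called sites at an adjusted p under 0.05, which is 0.0232% of those tested, 1 up and 6 down. None of them was among the 1988 tested sites without WT RAD21, whose smallest adjusted p was 0.139. At an unadjusted p under 0.05 were 108 of the 1988 sites (5.43%) and 8.32% of all sites tested. The median change at the sites without WT RAD21 was 0.09 normal-score units, against -0.01 over all sites. Of these sites 59.7% were above 0, and that share was not computed over all sites. Their median percentile was 59.2, 50.9 and 50.4 in Del(CBS1) replicates 1 to 3, with CTCF lists of 55109, 40667 and 44550 peaks. In Del(CBS1-5) it was 55.3 and 56.6, with 73916 and 58335 peaks. Whether the change follows list length was not tested. The slope per mutated CTCF site gave 0 calls among all sites by limma, which is 0% of those tested, with 84 of the 1988 sites (4.23%) and 1308 of all sites (4.33%) at an unadjusted p under 0.05. Embryos were dissociated one by one, but how many a library holds is not given in the sources used here, and p-values measure only the spread between these libraries.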

How the data were processed

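CTCF and RAD21 were profiled in 30 libraries of embryonic trunks at embryonic day 10.5. Per the labels' protocols, embryos were dissociated one by one, and mutant and littermate chromatin was fixed and sheared. The deposited peak lists, 1 per library on mm10, were used as they stand. The submitters' processing notes name MACS2 2.1.1.20160309, Bowtie2 2.3.5, cutadapt 1.16, Picard 2.19.0, bedtools 2.27.1 and SAMtools 1.9 without saying what each was used for. Options and any use of an input control are not given in the sources used here. In each deposited list the authors give a score per peak, a display value that was not used in any result. The authors' fold enrichment of the summit over local background is a ratio made within 1 library. The caller's -log10 q and -log10 p are also deposited per peak. No read counts were used, so depth is unknown, and a list is only as long as its calling allowed.

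Sites were built as described in the report. The members and lists were chosen with earlier results of these data known. CTCF was found in a library where a peak covered the median summit, and RAD21 where a peak lay within 150 bp. Fold values of a library were used as percentiles among the autosomal WT CTCF sites, with 0 for no peak, or as descriptions. Tests were exact sign-flip permutations over mutant libraries, permutation tests of correlations, and limma 3.58.1 in R 4.3.3 (normal scores of fold ranks, 1 coefficient per genotype or 1 slope, robust with trend, alleles with 1 library assumed to vary like the others). Tested on simulated data for Del(CBS1-5) minus Del(CBS1) over 30182 sites, limma recovered 26% of 50 planted shifts of 1 normal-score unit and 96% of 50 shifts of 2, with 3 false calls. The simulated noise was independent, with 1 spread for all sites and libraries. These figures therefore do not give the recovery or the false calls in the real libraries. Other steps used scipy 1.17.1, pandas 2.3.3, matplotlib 3.10.9 and numpy 2.4.6 in Python 3.11.15. Gene spans and promoter sequences came from RefSeq on GRCm38.p6. Exons, introns and sequence outside promoters were not used here.

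Sites named were the 10 with the highest WT fold, the 5 with the highest lowest-list -log10 q, up to 5 with RAD21 in most and 5 with CTCF in fewest mutant libraries, those nearest the limits, and those within 5 kb of a listed gene or in the HoxD window. The promoters at a fold of 15 or more, the sequences printed, the genes holding several sites and the tests of promoters were chosen after the values had been seen. Alternatives changed the link distance, the WT lists required, the fold and q limits, the number of peaks taken from each list, the limma scores and filters, the motif and the libraries included.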

Additional observations from a re-analysis of the deposited data

How the results depend on the processing

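Of 276 recomputed values, 242 kept their direction and their side of the threshold, or stayed within the range allowed for a count or share. The number of sites without WT RAD21 depended most on the limits. It was 6185 at a WT fold of at least 6, 814 at 10 and 4010 with RAD21 peaks of -log10 q of at least 5 only. It was 7833 with every list shortened to an equal number of top peaks per antibody, an alternative added after seeing the data. Leaving out each WT library gave 1639 to 3504, the lowest without CTCF WT replicate 1. The 5 differences between sites without WT RAD21 and other strong sites kept their sign and their call in all alternatives but the replicate block. Among these alternatives, a WT fold of 8 to 10 gave the smallest differences in RAD21 share (-65.9), percentile (-5.50), width (-59.8 bp) and -log10 q (-13.3). The bin at a WT fold of 15 or more was not among them. Its percentile difference was -0.26, lower in 5 of 11 libraries, and its CTCF share difference -0.48, lower in 2 of 11. With the replicate number as a block the tests had 3 blocks and the smallest possible p was 0.25: the differences were -77.6, -3.30, -22.3, -147 and -40.9 for RAD21 share, CTCF share, percentile, width and -log10 q (adjusted p = 0.25, exact permutation), and 3.97, 20.5 and 13.1 for the 3 promoter tests (adjusted exact permutation p = 0.667, 0.5 and 0.5). Deviations from the allele means correlated at -0.10 to 0.18 over 12 pairs of same-numbered mutant CTCF libraries (median -0.0042). Over 18 pairs with different numbers they correlated at -0.18 to 0.10 (median 0.0042). In an allele with only a pair of libraries the deviations mirror each other, so these values are largely set by the calculation. They cannot decide whether the numbers pair the libraries, and RAD21 libraries were not part of this check.

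With lists of equal length, r against the length of the deposited, uncut lists was -0.44 for RAD21 share and 0.513 for CTCF share. CTCF share followed list length in the deposited lists (r = 0.749, rho = 0.9, adjusted permutation p = 0.015 and 0.00078), and leaving out each library of an allele with 2 or more gave 0.690 to 0.776, the lowest without Del(CBS1-3) replicate 2 (adjusted permutation p = 0.0537). RAD21 share against the number of mutated sites reversed to 0.142 without the 2 farthest libraries and to 0.119 with lists of equal length; neither it nor CTCF share (r = 0.350) was called in any setting. The difference between gene body and intergenic sites, which was not called, ran from -0.37 to 0.151 on leaving out 1 library, with 0.151 without RAD21 Del(CBS1-4) replicate 1. The 7 limma calls for Del(CBS1-5) minus Del(CBS1) became 17 with ranks of -log10 p, 14 with centred log2 folds, 4 with no trend and not robust, 2 without the weakest 25% of sites and 6 with the replicate block. Leaving out 1 library gave 2 to 26 calls, 26 without Del(CBS1) replicate 1, 3 without replicate 2, 2 without replicate 3 and 17 without either Del(CBS1-3) library. The slope gave 0 calls in every setting run. The cause of these changes was not tested. Within 100 bp of the summit the exact motif stood at 14.3% of promoter sites without WT RAD21 and 20.6% of other strong sites, and where the lowest -log10 q was at least 10 at 10.2% and 15.7%. Motif, soft-masked and GC shares outside promoters were not run.

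Peak calls, not reads, limit these results: a site without a called RAD21 peak is one under the caller's threshold, and the share of sites with RAD21 in a library follows how many peaks it had. Folds of separate lists are not on 1 scale. Alleles with 1 library have no spread of their own, and these libraries, among them Del(CBS2) with the longest list of both antibodies, were not left out in turn in any comparison.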

Other observations

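The nearest other CTCF site lay within 1 kb at 237 of the sites without WT RAD21 (9.63%) and at 7.11% of the other strong sites. It lay between 1 and 10 kb away at 28.3% and 34.7%, between 10 and 50 kb at 50.9% and 46.4%, and beyond 50 kb at 11.2% and 11.7%. The difference was not tested. The summits of the 3 WT libraries spread over a median of 39 bp at the sites without WT RAD21 and 28 bp at the other strong sites. In 55 of the sites without WT RAD21 the lowest -log10 q over the 3 WT lists was at least 100.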
